A study of Mus musculus with 2 samples.

Results

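The cells described are alveolar type II (AT2) cells with the highest summed transcript level of Lcn2 and Lrg1 in bleomycin-injured mouse lungs. They were selected on measured values. Cells needed at least 500 genes, at most 15% mitochondrial UMIs (unique molecular identifiers, which count captured transcripts), at most 3 UMIs of Col1a1, Col1a2 and Col3a1 together, at least 20 UMIs per 10000 of Slc34a2, Lamp3, Cxcl15 and Hc together, and less than 5 per 10000 of the ciliated genes Tmem212, Ccdc153 and Dynlrb2. Of 16848 barcodes in 2 libraries, 13841 passed the gene and mitochondrial limits and 5373 passed the AT2 gate. The members are the 1344 gated cells at or above the 75th percentile of Lcn2 plus Lrg1 UMIs per 10000, taken over both libraries together. The other 4029 gated cells are called other AT2 cells.

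C57Bl6 mice received bleomycin, a drug that injures the lung and leads to fibrosis, on day 1. One group received vehicle. The other received navitoclax (ABT-263), which blocks BCL-XL, BCL-W and BCL-2, proteins that keep cells from apoptosis, from day 15 to day 20. Lungs were collected 21 days after injury, and sorted epithelial and stromal cells were mixed in equal parts before droplet capture, so all cells of both groups come from injured lungs. Each group is 1 library, and the labels do not give its number of mice. Treatment, library and mice therefore cannot be told apart, no test between the groups exists, and all intervals below are 95% intervals for counting error only, given in square brackets for ratios.

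AT2 cells make surfactant, line the alveolus with innate defence proteins, and act as progenitors that replace the flat type I (AT1) cells after injury by way of a keratin-rich transitional state. Lcn2 encodes lipocalin 2, a secreted protein that binds bacterial iron carriers, and Lrg1 encodes leucine-rich alpha-2-glycoprotein 1, a secreted modulator of TGF-β signalling. Both proteins are classed with the acute-phase proteins, which epithelia and liver secrete under IL-6 and IL-1 family cytokines, and AT2 states with raised Lcn2 are known from injured mouse lungs.

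Lcn2 (ENSMUSG00000026822) lies on the minus strand of chromosome 2 at 32384633 to 32388252 and Lrg1 (ENSMUSG00000037095) on the minus strand of chromosome 17 at 56119678 to 56122001, both in GRCm38 (GENCODE M21). The 250 bases before the RefSeq start of each gene (GRCm38.p6, read 5′ to 3′ on the gene's strand) are shown because these 2 genes define the cells. The Lcn2 window lies inside the longer GENCODE span of the gene, and the Lrg1 window overlaps the 5′ end of its span, so both are windows before the RefSeq start rather than before the first annotated base. Capitals mark the match to the C/EBP motif TTGCNNAA.
Lcn2, chr2:32387740-32387989, minus strand: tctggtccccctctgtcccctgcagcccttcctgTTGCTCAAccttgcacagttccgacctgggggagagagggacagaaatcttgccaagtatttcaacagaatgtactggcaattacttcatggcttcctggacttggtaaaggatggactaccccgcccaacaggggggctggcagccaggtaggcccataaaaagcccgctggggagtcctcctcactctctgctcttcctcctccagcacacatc
Lrg1, chr17:56121947-56122196, minus strand: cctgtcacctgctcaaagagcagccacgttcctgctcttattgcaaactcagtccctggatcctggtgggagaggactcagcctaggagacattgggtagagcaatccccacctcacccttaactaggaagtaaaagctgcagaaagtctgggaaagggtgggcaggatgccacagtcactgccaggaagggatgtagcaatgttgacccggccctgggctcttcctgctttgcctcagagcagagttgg
Both strands were searched for TTGCNNAA, for the STAT motif TTCNNNGAA and for the NF-κB consensus. The Lcn2 window held 1 C/EBP match, 216 to 209 bases before the start, and no other match, and the Lrg1 window held no match. Among all 27025 genes with a RefSeq window, 10.8% held the C/EBP motif, 8.13% the STAT motif and 4.46% the NF-κB consensus. These are matches of letters, not shown binding sites.

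Because Lcn2 and Lrg1 chose the cells, their levels in them are a description. Lcn2 stood at 2933 CPM (the share of the gene in all UMIs summed over the cells, where 100 CPM is 1 UMI per 10000) in the 531 vehicle members and 3587 CPM in the 813 navitoclax members, against 823 and 984 CPM in the other AT2 cells. Lrg1 stood at 1172 and 1073 CPM in members against 211 and 194 CPM in the others. Fibroblasts of the same libraries gave 13.0 and 26.6 CPM of Lcn2 and 4.05 and 6.17 CPM of Lrg1 (cells of the collagen gate, under 5 per 10000 of the AT2 genes). Lcn2 made up most of the score, with a median share of 72.7% in vehicle and 79.9% in navitoclax members. Every member carried Lcn2 UMIs, while 23 vehicle and 28 navitoclax members had none of Lrg1.

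The 2 genes were high in overlapping but different cells. Of the 1344 highest cells by Lcn2 alone, 698 were also among the 1344 highest by Lrg1 alone, which is 51.9% of each. Cells chosen by Lcn2 alone, a choice that does not use Lrg1, had 874 CPM of Lrg1 in the vehicle library against 298 CPM in the rest, a ratio of 2.93 (2.85 to 3.01), and 891 against 288 CPM in the navitoclax library, a ratio of 3.09 (3.01 to 3.17). Cells chosen by Lrg1 alone had 2066 against 1004 CPM of Lcn2 (ratio 2.06, 2.03 to 2.09) and 3150 against 1385 CPM (ratio 2.27, 2.25 to 2.30). Across gated cells thinned to 5000 UMIs, the Spearman correlation of the 2 genes was 0.42 over 2697 vehicle cells and 0.50 over 2453 navitoclax cells. Within members it was −0.28 and −0.004, where the sum that chose the cells ties the 2 values to each other.

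The score had no gap at the boundary. The 75th percentile was 24.4 per 10000. The lowest member lay at 24.448 and the highest cell outside at 24.422. Within 10% of the boundary lay 76 vehicle and 103 navitoclax members, and 95 and 118 other cells. The median member scored 34.6 in the vehicle and 36.9 in the navitoclax library, with maxima of 163 and 391, and 113 vehicle members (21.3%) and 214 navitoclax members (26.3%) scored at least double the boundary. The class is therefore the upper range of a continuous score rather than a separate cluster.

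Members made up a larger share of gated AT2 cells in the navitoclax library. They were 531 of 2827 vehicle cells, 18.8% (exact Clopper-Pearson interval 17.4 to 20.3), and 813 of 2546 navitoclax cells, 31.9% (30.1 to 33.8), a difference of 13.1 percentage points (Newcombe interval 10.8 to 15.5). The whole distribution was displaced, with 29.6% of vehicle and 19.8% of navitoclax cells in the lowest quartile. Over all gated cells the navitoclax to vehicle ratio was 1.52 (1.51 to 1.54) for Lcn2 and 1.24 (1.22 to 1.27) for Lrg1. Chosen by Lcn2 alone the difference was 15.8 points, and chosen by Lrg1 alone it was 4.34 points. In fibroblasts the ratio was 2.04 (1.78 to 2.33) for Lcn2 and 1.52 (1.17 to 1.98) for Lrg1. In ciliated cells, on few UMIs, it was 1.19 (0.850 to 1.69) for Lcn2 and 1.37 (0.794 to 2.45) for Lrg1. The part of free RNA in the share was not tested.

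**Figure D1:**
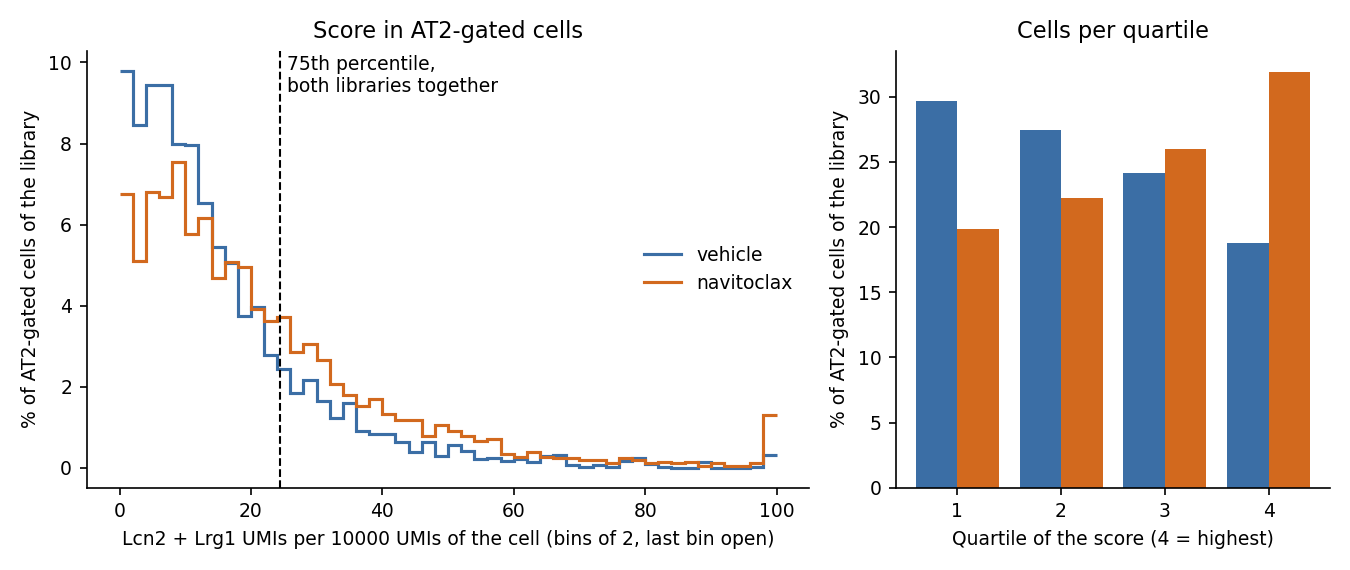
Left, share of each library's AT2-gated cells (y axis, %) by Lcn2 plus Lrg1 UMIs per 10000 (x axis, bins of 2, the last bin open), vehicle in blue and navitoclax in orange, with a dashed line at the 75th percentile of both libraries together. Right, share of each library's gated cells in each quartile of the score: 18.8% of vehicle and 31.9% of navitoclax cells lie in the highest quartile, and the distribution has no gap at the boundary.

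The members carried the abundant AT2 markers. A list of 7 AT2 markers outside the rule (Sftpc, Sftpa1, Sftpb, Abca3, Napsa, Lyz2 and Etv5) summed to a median of 3073 per 10000 UMIs in vehicle and 3243 in navitoclax members, and to 3000 and 3143 in other AT2 cells. Sftpc, surfactant protein C, stood at 223212 and 231950.0 CPM in members, most of that sum. A list of AT2 transcription factors and progenitor signals was slightly lower in members than in other AT2 cells. Its median log2 ratio of CPM plus 5 was −0.14 in both libraries, where all genes had −0.04. Below 0 were 18 of 22 of its genes in vehicle and 17 of 22 in navitoclax. Of 17 with enough UMIs, 1, Hopx, was at least 1.5-fold lower in both libraries. As a description only, since they are part of the rule, the gate genes Slc34a2, Lamp3, Cxcl15 and Hc summed to a median of 193 and 192 per 10000 in members against 160.1 and 158 in other AT2 cells.

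Markers of other cells summed to low levels, though UMIs of the endothelial list, in vehicle members mostly of the gene Egfl7, were more frequent in members. The 5 endothelial markers summed to 0.239 and 0.243 per 10000 in members against 0.191 and 0.177 in other AT2 cells, and 63.1% and 61.1% of members had no UMI of them, against 73.6% and 73.5% of the others, with 1 of the 5 at 0 in members of each library. The greater depth of members moves with this share, and its part was not tested. Egfl7 alone made up most of the endothelial sum of vehicle members. It stood at 15.8, 16.8, 19.7 and 22.7 CPM from the lowest to the highest quartile of the vehicle library. Of 7 neutrophil markers, 5 were at 0 in members of either library, and the list summed to 0.0245 and 0.0187 per 10000, against 0.00784 and 0.0117 in other AT2 cells. Retnlg made up most of the sum in vehicle members, at 2.36 CPM. All 3 basal markers were at 0. Of 9 leukocyte markers, 5 were at 0 in vehicle and 3 in navitoclax members, with sums of 0.0734 and 0.0939 per 10000, against 0.0765 and 0.0740 in other AT2 cells. Fibroblast markers summed to 0.749 and 1.04 per 10000 in members, against 317 and 423 in fibroblasts. Airway UMIs were uneven. Cells with over 20 per 10000 of the club cell genes Scgb1a1 and Scgb3a2 made up 20 vehicle members (3.77%, 2.32 to 5.76) and 48 navitoclax members (5.90%, 4.38 to 7.75), against 175 (7.62%) and 122 (7.04%) of other AT2 cells. A Scgb1a1 UMI was found in 93.5% of vehicle and 88.1% of navitoclax fibroblasts thinned to 5000 UMIs, at median depths of 7867 and 8859 UMIs, and in 87.2% and 82.2% of thinned members, whose medians before thinning were 20728 and 22724. Single Scgb1a1 UMIs in members are at the background level. Without thinning the 4 shares were 97.6%, 97.1%, 99.6% and 99.3%. Thinning left out 586 vehicle and 371 navitoclax fibroblasts and 14 and 16 members.

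Members were deeper than the other AT2 cells. Their median was 20728 UMIs and 3840 genes in the vehicle and 22724 UMIs and 3972 genes in the navitoclax library, against 17308 UMIs and 3518 genes and 18374 UMIs and 3640 genes in the others. Mitochondrial shares were alike, with medians of 5.001% and 4.72% in members and 4.997% and 4.94% in the others. Scrublet called 0 vehicle and 1 navitoclax member as doublets. The libraries shared 20 barcode sequences, of which 2 vehicle and 4 navitoclax members carried one.

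Beyond the 2 genes of the score, the members had higher levels of several secreted acute-phase proteins and lower levels of several transitional and AT1 genes than other AT2 cells. Of 4689 genes with enough UMIs, 24 (0.512%) were at least 1.5-fold higher in members than in other AT2 cells in both libraries, and 32 (0.682%) were at least 1.5-fold lower. Lcn2, Lrg1 and the gate genes were left out of these counts. The cells were chosen by values of the same transcriptomes, so the ratios describe the members and test nothing. With cells thinned to 5000 UMIs, so that depth is equal, the counts were 23 and 35, and 19 and 26 of the genes were shared with the unthinned counts.

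Among secreted acute-phase proteins, 4 of 5 genes with enough UMIs were at least 1.5-fold higher in both libraries, namely Itih4, Lbp, Chil1 and Slpi. Over all members of that list with at least 50 UMIs, 9 of 9 were above 0 in the vehicle library with a median log2 ratio of 0.76, and 10 of 12 in the navitoclax library with a median of 0.76. The median of all genes was −0.04 in both libraries on this log2 scale of CPM plus 5. The list was chosen with earlier results of these data known.

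Chil1, which encodes a chitinase-like lectin, was the most abundant of them. It stood at 3210.1 CPM in vehicle and 3488 CPM in navitoclax members, against 1889 and 2080.2 CPM in other AT2 cells. The ratios were 1.6996 [1.68 to 1.72] and 1.68 [1.66 to 1.69]. By the rule for likeness, Chil1 also had the pattern closest to the score over single cells, with Spearman correlations of 0.50 over 2697 vehicle cells and 0.54 over 2453 navitoclax cells thinned to 5000 UMIs. Elovl1, a fatty acid elongase (0.39 and 0.37), Lyz2, lysozyme 2 (0.36 and 0.35), Scp2, a sterol carrier (0.30 and 0.35), and Scd1, a fatty acid desaturase (0.29 and 0.32), came next. These cells share 1 library each and the correlations carry no test.

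Itih4, an inter-alpha-trypsin inhibitor heavy chain, stood at 229 and 210.2 CPM in members and at 101 and 112 CPM in the others, which is 2.27-fold [2.16 to 2.39] and 1.87-fold [1.79 to 1.96] higher. Lbp, the lipopolysaccharide-binding protein, stood at 152 and 168 against 85.6 and 95.4 CPM, with ratios of 1.78 [1.67 to 1.88] and 1.76 [1.67 to 1.85]. Its membrane partner in endotoxin recognition, Cd14, stood at 72.4 and 75.1 against 46.4 and 42.5 CPM, with ratios of 1.56 [1.43 to 1.69] and 1.77 [1.64 to 1.902]. The RNA of both genes was thus higher in members, and endotoxin recognition itself was not tested. Slpi, a secreted inhibitor of leukocyte proteases, stood at 97.6 and 121 against 61.4 and 68.7 CPM (1.59-fold [1.48 to 1.71] and 1.77-fold [1.67 to 1.87]). Complement C3 stood at 147 and 158 against 85.3 and 94.99 CPM (1.73-fold [1.63 to 1.83] and 1.67-fold [1.59 to 1.75]), while the complement list as a whole had medians of −0.01 and −0.05. C3 was 1 of 2 complement genes with enough UMIs.

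Rarer acute-phase genes had larger ratios at low levels. Orm1, orosomucoid 1, stood at 6.796 and 8.56 CPM in members and 1.67 and 2.74 CPM in the others, 4.08-fold and 3.13-fold. Fgg, the fibrinogen gamma chain, stood at 8.97 and 5.24 against 2.21 and 1.02 CPM, 4.07-fold and 5.12-fold. Saa3, a serum amyloid A gene, had 1 UMI in vehicle and 467 in navitoclax members, of which 1 cell held 37.5%. The library difference in Saa3 is therefore read no further.

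Single enzymes that make lipid and amine mediators were past the limit, without a list of such enzymes having been fixed. Ptgs1, cyclooxygenase 1, stood at 215 and 231 CPM against 132 and 144 CPM, with ratios of 1.63 [1.55 to 1.71] and 1.601 [1.54 to 1.67]. Ptges, a prostaglandin E synthase, stood at 39.5 and 39.6 against 26.002 and 22.2 CPM (1.52-fold and 1.79-fold). The inducible cyclooxygenase Ptgs2 had the opposite direction, at 30.6 and 60.5 CPM in members against 53.8 and 76.2 CPM, 1.76-fold [1.57 to 1.98] and 1.26-fold lower [1.17 to 1.35]. Hdc, histidine decarboxylase, which makes histamine, stood at 235 and 237 against 119 and 109 CPM (1.97-fold [1.88 to 2.07] and 2.17-fold [2.08 to 2.27]).

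A few genes of lipid transport were past the limit. Mfsd2a, a lysophospholipid transporter, stood at 38.2 and 41.9 against 17.4 and 16.5 CPM, 2.197-fold [1.94 to 2.48] and 2.54-fold [2.27 to 2.83]. Fabp5, a fatty acid binding protein, stood at 1552 and 1338 against 1017 and 879 CPM (1.53-fold and 1.52-fold), and Apoc1, an apolipoprotein, at 506 and 455 against 330.1 and 300.03 CPM (1.53-fold and 1.52-fold). Scd1 stood at 6229.8 and 5762 against 4328 and 4079 CPM (1.44-fold and 1.41-fold), under the 1.5-fold limit. In the surfactant and AT2 lipid list 1 of 24 genes passed the limit, Fabp5, and the medians were 0.05 and 0.09. In cholesterol synthesis, none of 17 passed in either direction, with medians of 0.14 and 0.12.

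In the iron handling, MHC class I and chemokine lists, few genes passed the limit. Transferrin (Trf), which carries iron, stood at 219 and 236 against 137 and 142 CPM (1.597-fold [1.52 to 1.68] and 1.66-fold [1.596 to 1.73]), the only 1 of 9 iron-handling genes past the limit. In the MHC class I and immunoproteasome list, 14 of 14 genes in the vehicle and 13 of 14 in the navitoclax library were above 0, with medians of 0.22 and 0.20. H2-K1, a classical class I gene, stood at 1186 and 1080.2 against 894 and 849 CPM (1.33-fold and 1.27-fold). H2-Q7, the 1 of 12 past the limit, stood at 59.1 and 44.6 against 32.1 and 28.7 CPM, but reads of the near-identical H2-Q genes may be divided among them. Il33, an alarmin cytokine, stood at 319 and 331 against 219.6 and 201 CPM (1.45-fold and 1.64-fold), past the limit in the navitoclax library alone. The chemokine list had medians of 0.33 and 0.39, on low levels that single cells lead, and the vehicle median was −0.151 with members chosen by Lrg1 alone. Cxcl1 stood at 5.89 and 11.05 CPM, with 35.4% and 16.4% of its UMIs in 1 cell.

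Of the remaining named genes, Ogfrl1 stood at 46.3 and 40.6 against 22.2 and 19.9 CPM (2.09-fold [1.87 to 2.33] and 2.04-fold [1.84 to 2.26]). Cd302, a C-type lectin receptor, stood at 94.9 and 100.02 against 55.7 and 58.1 CPM (1.703-fold and 1.72-fold). Itga7, a laminin-binding integrin, stood at 31.1 and 34.9 against 18.3 and 21.6 CPM, and Tubb2a, a β-tubulin, at 35.2 and 33.6 against 19.5 and 17.8 CPM. Dmkn and Retnla were also past the limit, but 1 cell held 13.5% of the Dmkn UMIs of vehicle members, and 1 cell held 18.7% and 17.6% of the Retnla UMIs of vehicle and navitoclax members. Without all genes so led by 1 cell the counts were 22 higher and 25 lower.

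**Figure D2:**
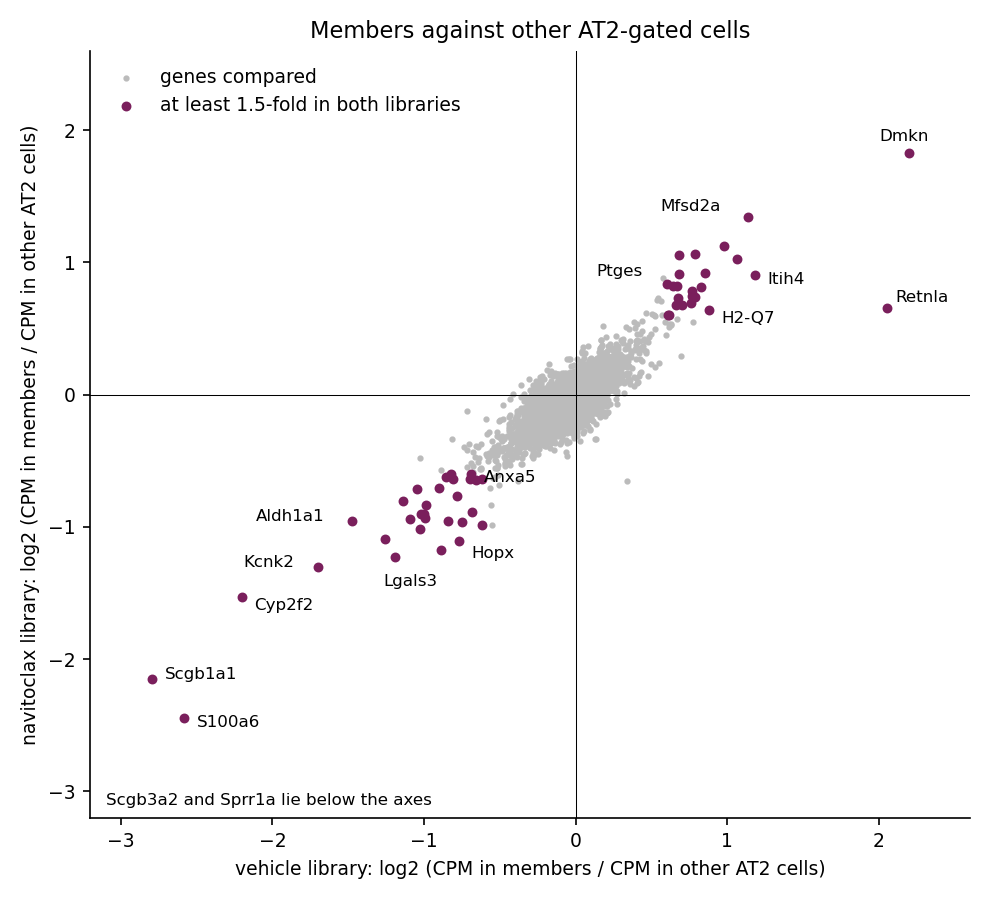
Each point is a gene, with the log2 ratio of its CPM in members to that in other AT2 cells in the vehicle library (x axis) and in the navitoclax library (y axis). Purple points are at least 1.5-fold apart in both libraries, 24 higher and 32 lower, of which 2 (Scgb3a2 and Sprr1a) lie below the axes. The rule for purple points requires the same direction in both libraries.

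Some of the higher genes followed the score over its whole range. Chil1 stood at 1239.6, 1948, 2481 and 3210.1 CPM from the lowest to the highest quartile of the vehicle library, and at 1192, 2077, 2622 and 3488 CPM in the navitoclax library. Itih4 stood at 58.97, 99.04, 144 and 229 CPM and at 47.99, 106, 156 and 210.2 CPM. Hdc stood at 70.8, 127, 158 and 235 CPM and at 60.8, 105, 141 and 237 CPM. Each of the 3 genes was higher in every quartile than in the one below it, in both libraries. Genes lower in members varied in shape. Timp3, a metalloproteinase inhibitor, stood at 186, 137, 113 and 73.4 CPM in vehicle and at 193, 140.4, 115 and 80.1 CPM in navitoclax cells, lower in each successive quartile. Krt19, a keratin of the transitional state, stood at 72.6, 34.4, 28.1 and 22.2 CPM in vehicle and at 115, 44.2, 39.3 and 32.2 CPM in navitoclax cells, so for Krt19 most of the difference lay between the lowest quartile and the rest. Set against the 2 middle quartiles alone, a comparison added after the values were seen, 13 genes were higher in members, 12 of them among the 24, and 7 were lower, all among the 32. Set against the lowest quartile, 72 were higher and 134 lower.

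**Figure D3:**
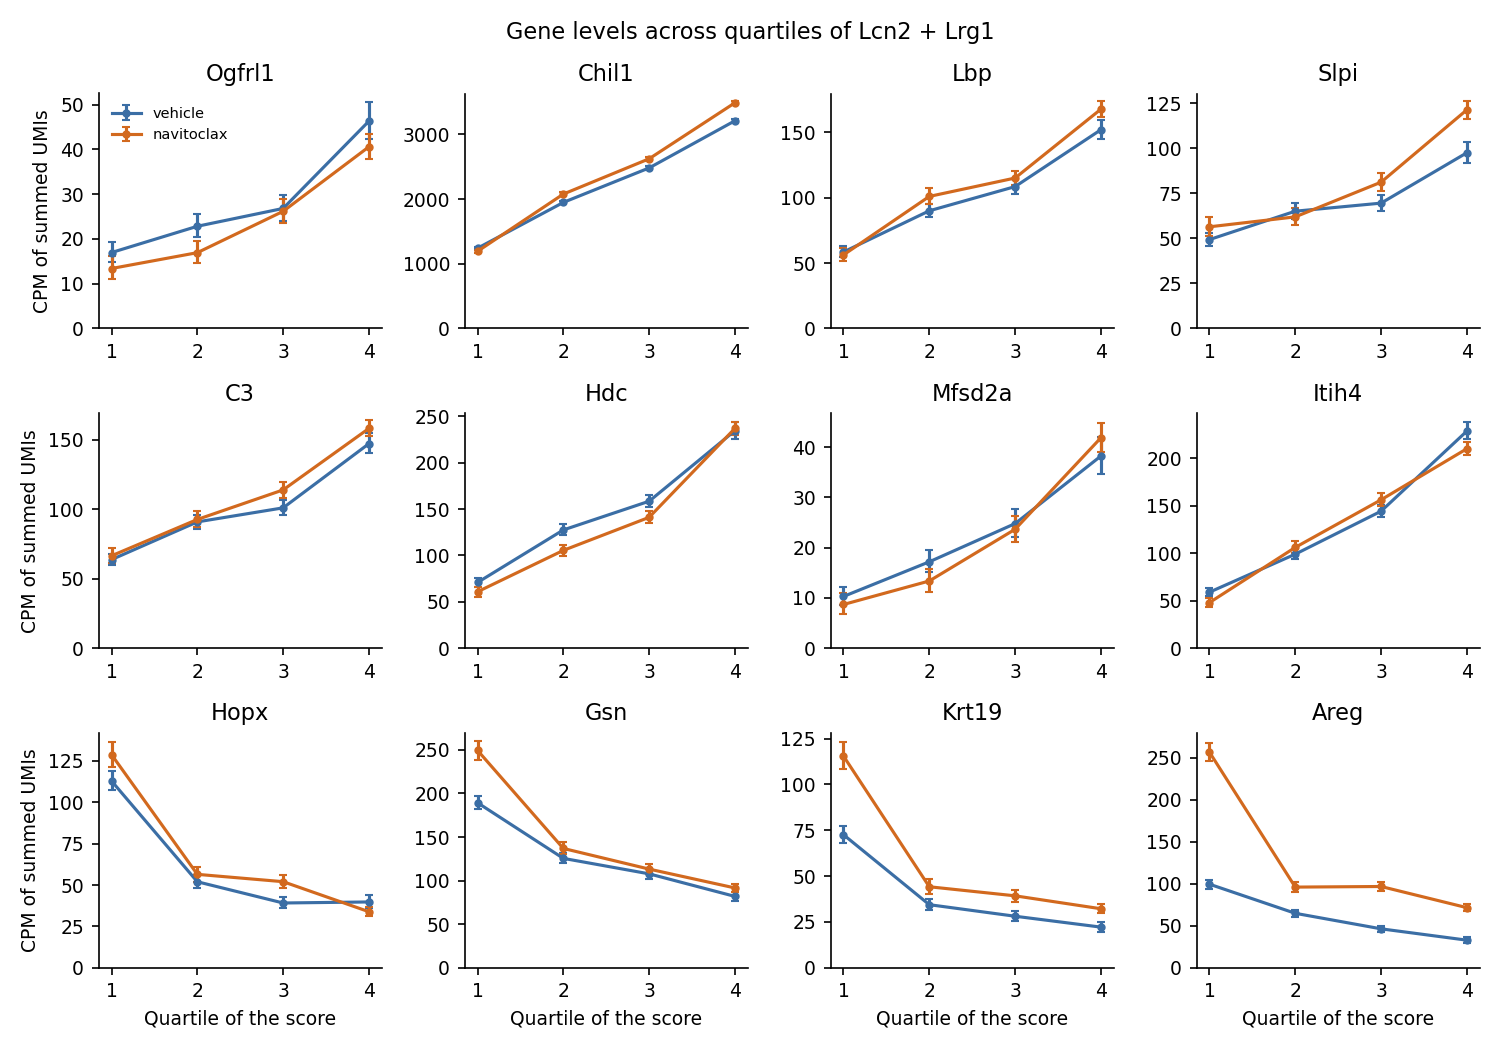
CPM of summed UMIs (y axis, from 0) in the 4 quartiles of Lcn2 plus Lrg1 (x axis, 4 being the members) for 12 genes, vehicle in blue and navitoclax in orange, with exact Poisson 95% intervals for counting error. Chil1, Itih4 and Hdc are higher in each successive quartile, while Krt19 is highest in the lowest quartile and lower in the other 3.

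Markers of the route from AT2 to AT1 cells were lower in members, by less in the typical cell than in sums over cells. The median of 10 transitional markers was 4.93 and 5.45 per 10000 in members against 5.67 and 6.78 in the others. Their sums over cells were 5.86 and 7.35 against 8.65 and 11.03 per 10000. In the transitional list, 21 of 22 genes in the vehicle and 22 of 23 in the navitoclax library were below 0, with medians of −0.45 and −0.39, and 6 of 16 passed the 1.5-fold limit. Krt19 stood at 22.2 and 32.2 CPM in members against 44.99 and 60.4 CPM (2.03-fold [1.77 to 2.33] and 1.87-fold lower [1.71 to 2.05]). Lgals3, galectin 3, stood at 69.3 and 93.5 against 158 and 219 CPM (2.28-fold [2.11 to 2.46] and 2.35-fold lower [2.23 to 2.47]). Areg, the EGF-receptor ligand amphiregulin, stood at 32.9 and 71.5 against 70.2 and 137 CPM (2.13-fold [1.91 to 2.39] and 1.92-fold lower [1.81 to 2.04]). Krt18, S100a6 and Sprr1a were the other 3, and for S100a6 1 cell held over 10% of the UMIs of a group. Sprr1a, a cornified envelope gene, had 12 and 4 UMIs in members, 91.7% of the vehicle ones in 1 cell, against 1164 and 1002 in the others.

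AT1 genes had the same direction. The median of 8 AT1 markers per cell was 15.3 and 17.3 per 10000 in members against 18.4 and 19.8 in the others. In the AT1 list, 15 of 18 genes in the vehicle and 18 of 18 in the navitoclax library were below 0, with medians of −0.33 and −0.32, and 4 of 12 passed the limit. Clic5, a chloride channel protein of AT1 cells, stood at 24.7 and 29.1 against 50.3 and 58.6 CPM (2.03-fold [1.79 to 2.31] and 2.02-fold lower [1.84 to 2.22]). Timp3 stood at 73.4 and 80.1 against 145 and 143 CPM (1.98-fold [1.84 to 2.13] and 1.79-fold lower [1.69 to 1.89]). Hopx, an AT1 transcriptional regulator, stood at 39.8 and 33.9 against 67.9 and 73.1 CPM, with 12.8% of the vehicle members' UMIs in 1 cell. Akap5 was the other 1. Outside these lists, the potassium channel Kcnk2 stood at 8.25 and 11.3 against 26.7 and 27.8 CPM (3.24-fold [2.61 to 4.06] and 2.47-fold lower [2.13 to 2.87]), Ndnf, a secreted factor, at 38.3 and 46.4 against 91.5 and 99.02 CPM (2.39-fold and 2.13-fold lower), and Gstm1, a glutathione transferase, at 32.7 and 27.1 against 60.5 and 61.4 CPM (1.85-fold and 2.26-fold lower).

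Airway secretory genes were lower in members as well, with 5 of 8 past the limit (Scgb1a1, Scgb3a2, Cyp2f2, Aldh1a1 and Sec14l3). Scgb1a1 stood at 1627 and 3009 CPM in members against 11263 and 13328 CPM in the others, and 1 cell held 22.99% and 48.2% of the members' UMIs. The typical cell was nearly level: 6 club and secretory markers summed to a median of 4.67 and 3.48 per 10000 in members and 5.06 and 4.02 in the others, and a Scgb1a1 UMI was found in 89.8% and 82.1% of the thinned other AT2 cells, beside the 87.2% and 82.2% of members given above. Without the cells over the airway limit given above the counts over all genes were 21 higher and 33 lower, with 19 and 27 shared.

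Of the ER stress lists, ATF6 targets and IRE1 and XBP1 targets were slightly higher in members than in other AT2 cells, and PERK and ATF4 targets slightly lower. None of 13 ATF6 chaperone targets and none of 15 IRE1 and XBP1 targets passed the limit in either direction, with medians of 0.15 and 0.17 for ATF6 and 0.08 and 0.09 for IRE1. Over all genes, 0.512% passed it upward and 0.682% downward, and the median was −0.04 in both libraries. Above 0 were 12 of 14 ATF6 targets in vehicle and 13 of 14 in navitoclax, and 15 of 18 IRE1 and XBP1 targets in each. The ER stress sensors ATF6 and IRE1 raise chaperones and secretory machinery. Manf, an ER stress-induced secreted factor, stood at 128 and 154 against 110.4 and 126 CPM (1.16-fold and 1.23-fold), and Sec61b, a subunit of the ER translocon, at 332 and 367 against 284 and 309.6 CPM (1.17-fold and 1.19-fold). The PERK and ATF4 list had medians of −0.14 and −0.08.

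The lists of IL-6 and IL-1 family signalling had medians slightly below 0, where the median of all genes was −0.04 in both libraries. Only the vehicle median of the IL-1, TNF and NF-kB list lay clearly below that of all genes. Both lists hold RNA levels of pathway genes, and the activity of the pathways was not tested. Cebpd, listed with the STAT3 pathway, had no match. None of 13 genes of IL-6 family receptors and the STAT3 pathway passed the limit, with medians of −0.02 in both libraries, and none of 11 genes of the IL-1, TNF and NF-kB pathway, with medians of −0.11 and −0.04. Socs3, the feedback inhibitor of STAT3 signalling, stood at 78.1 and 74.9 against 69.4 and 56.2 CPM (1.12-fold and 1.33-fold), and Pim1, a kinase gene that STAT3 induces, at 44.7 and 36.8 against 32.1 and 27.9 CPM (1.39-fold and 1.32-fold). Immediate-early genes, many of which respond to tissue digestion, were lower, with medians of −0.26 and −0.24 and none of 16 past the limit. Among the RefSeq promoter windows of the 24 higher genes, 16 matched genes had a window, of which 6 (37.5%) held the C/EBP motif, 3 (18.8%) the NF-κB consensus and 1 (6.25%) the STAT motif. Of the 32 lower genes 25 had a window, and 4 (16%), 1 (4%) and 0 held them. Among all 27025 genes with a window the 3 shares were 10.8%, 4.46% and 8.13%. These are matches of letters in few genes, and the part of these motifs was not tested.

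**Figure D4:**
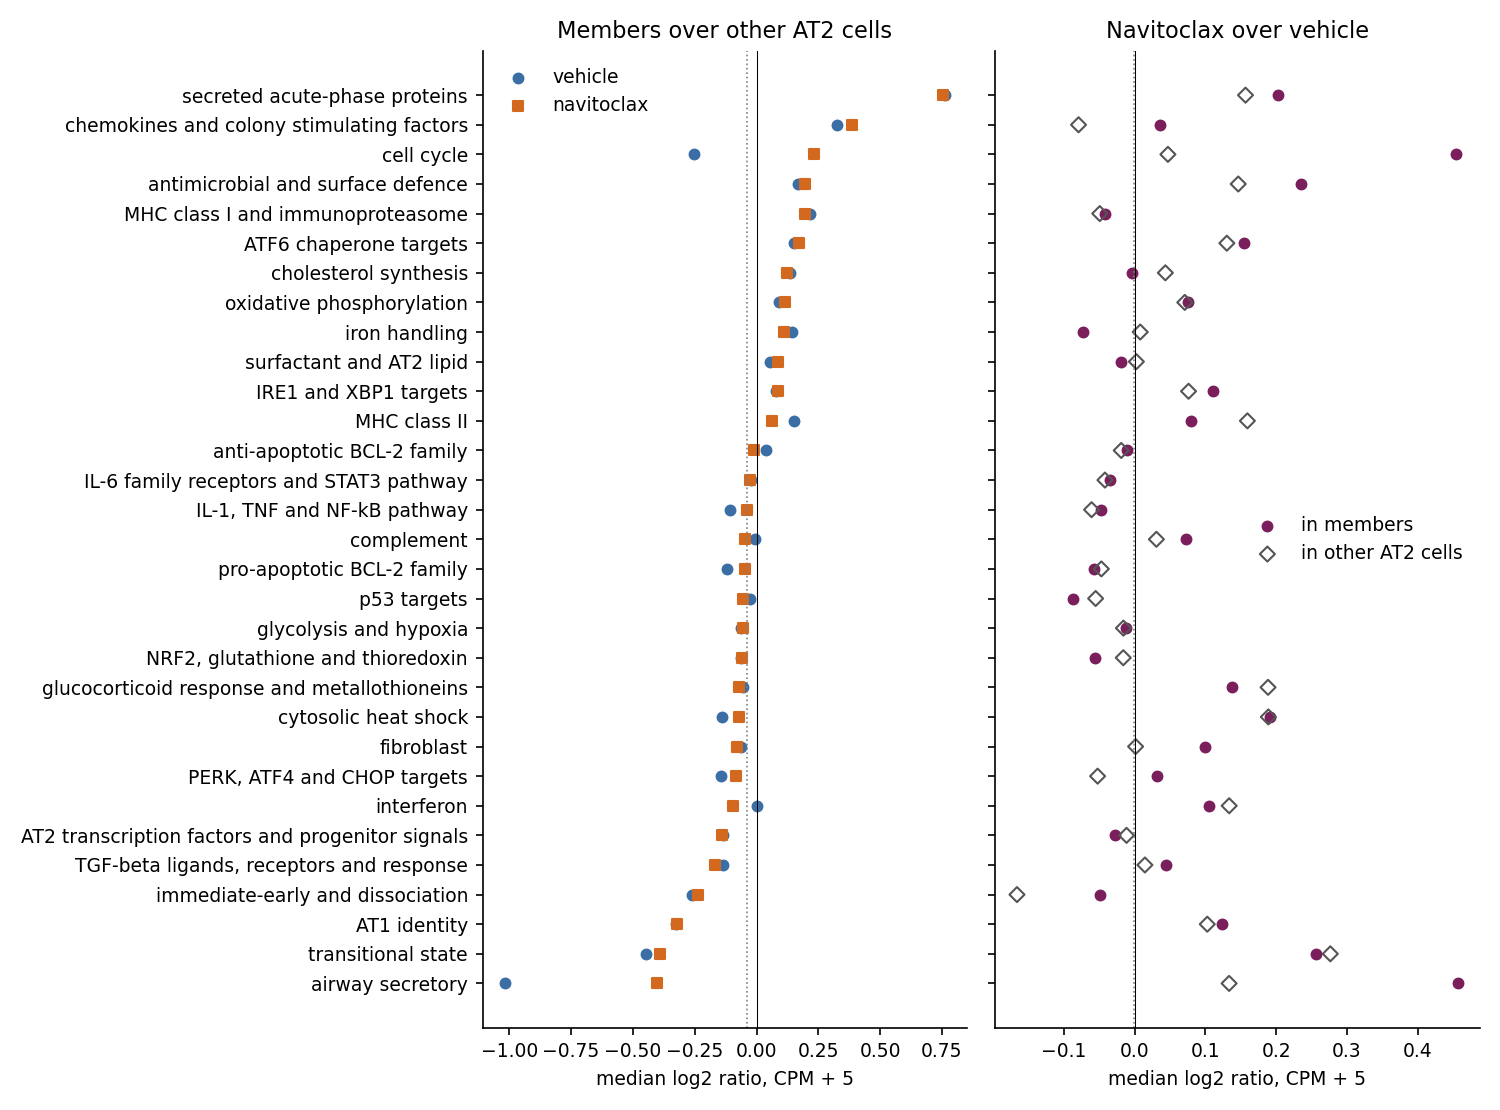
Median log2 ratio of CPM plus 5 (x axes) for each gene list (y axis), left for members over other AT2 cells in the vehicle (circles) and navitoclax library (squares), right for navitoclax over vehicle in members (filled circles) and in other AT2 cells (diamonds), with the median of all genes dotted. Secreted acute-phase proteins lie highest on the left at 0.76 and 0.76, and the airway, transitional and AT1 lists lie lowest.

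Several inducible heat shock genes were higher in navitoclax than in vehicle members. Of 4740 genes, 26 (0.549%) were at least 1.5-fold higher and 12 (0.253%) at least 1.5-fold lower in navitoclax members. With cells thinned to 5000 UMIs the counts were 61 and 50, which include 20 of the 26 and 10 of the 12. Of the cytosolic heat shock list, 5 of 16 were higher past the limit, and 16 of 18 genes were above 0 with a median of 0.19, against 0.19 in other AT2 cells. The immediate-early list had a median of −0.05, with 1 of 17 genes past the limit in each direction (Egr1 higher, Zfp36 lower). The transitional list had a median of 0.26 in members and 0.28 in other AT2 cells, with 2 of 15 higher past the limit (Areg and S100a6). For S100a6, 1 cell held over 10% of the UMIs of a group. An S100a6 UMI was found in 10.8% of thinned members of each library. The airway list had a median of 0.46 with 3 of 6 higher, and −0.0991 without the cells over the airway limit. The cell cycle list had a median of 0.45, and the only 1 of its genes with enough UMIs was not past the limit.

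Hspa1a, an inducible HSP70 gene, stood at 11.1 CPM in vehicle and 502 CPM in navitoclax members, a ratio of 45.04 [37.7 to 54.3], and at 19.5 and 538 CPM in other AT2 cells. Its near-identical copy Hspa1b stood at 8.52 and 303 CPM in members, and reads may be divided between the 2. Hspb1, the small heat shock protein HSP27, stood at 52.3 and 139 CPM (2.66-fold [2.43 to 2.91]). Hsp90aa1 stood at 247 and 415 CPM (1.68-fold [1.61 to 1.76]), and the co-chaperone gene Dnajb1 at 32.6 and 60.2 CPM (1.85-fold [1.64 to 2.08]). The other AT2 cells had 2.35-fold, 1.69-fold and 1.83-fold for these 3. Heat shock and early genes respond to handling of tissue, and the part of preparation in these differences cannot be told apart from treatment.

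Of further genes higher in navitoclax members, Areg stood at 32.9 and 71.5 CPM (2.18-fold [1.94 to 2.45]), Ptgs2 at 30.6 and 60.5 CPM (1.98-fold [1.75 to 2.24]) and Phlda1, a growth factor-induced gene, at 152 and 287 CPM (1.89-fold [1.79 to 1.998]). Rsrp1, a splicing-related gene, stood at 153 and 304 CPM, Rgcc, a cell cycle regulator, at 103 and 169 CPM and Irx1, a homeobox factor of the lung epithelium, at 178 and 302 CPM, with ratios of 1.99, 1.64 and 1.696. The 3 ratios were 1.99, 1.65 and 1.598 in other AT2 cells.

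The genes lower in navitoclax members included regulators of RNA decay and of daily rhythm. Zfp36, which speeds the decay of inflammatory mRNAs, stood at 219 CPM in vehicle and 130.3 CPM in navitoclax members (1.68-fold lower [1.59 to 1.78]). Nr1d1, the clock repressor REV-ERBα, stood at 56.4 and 25.6 CPM (2.199-fold lower [1.95 to 2.48]), and Bhlhe40, another clock-linked repressor, at 51.8 and 34.03 CPM (1.52-fold lower [1.36 to 1.71]). The nuclear noncoding RNA Neat1 stood at 900.4 and 522 CPM (1.72-fold lower [1.68 to 1.77]), March7, a ubiquitin ligase, at 101 and 63.6 CPM (1.58-fold lower [1.46 to 1.72]) and Id1, a target of BMP signalling, at 62.8 and 39.5 CPM (1.59-fold lower [1.43 to 1.77]). Other AT2 cells had the same direction for all 6, 1.59-fold, 1.91-fold, 1.48-fold, 1.68-fold, 1.495-fold and 1.42-fold lower.

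None of the 24 genes higher in members was past the 1.5-fold limit between the libraries. Of all 4740 genes only 0.549% were higher and 0.253% lower past that limit, so a count of 0 among 24 is near the share of all genes. Their navitoclax to vehicle ratios in members ran from 0.755 for H2-Q7 to 1.399 for Dmkn, with 1.24 for Slpi and 1.37 for Retnla. Chil1 was 1.09 [1.07 to 1.101] times, Lbp 1.103 [1.04 to 1.17] times, C3 1.07 [1.01 to 1.14] times, Hdc 1.01 [0.963 to 1.06] times and Ptgs1 1.08 [1.02 to 1.13] times its vehicle level in navitoclax members. Itih4 was 0.919 [0.874 to 0.966] times and Fabp5 0.862 [0.845 to 0.879] times its vehicle level. The acute-phase list had a median of 0.20 in members and 0.16 in other AT2 cells. ER chaperone lists had small positive medians between the libraries, with 11 of 14 ATF6 targets above 0 (median 0.15) and 14 of 18 IRE1 and XBP1 targets (median 0.11), against medians of 0.13 and 0.08 in the other AT2 cells, and none past the limit. The IRE1 and XBP1 median in members was −0.00110 at the 90th percentile. Calr, the ER chaperone calreticulin, stood at 251 and 313 CPM (1.25-fold) and Pdia3, a disulfide isomerase, at 154 and 197 CPM (1.28-fold).

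The genes that encode the targets of navitoclax were near level between the libraries or slightly higher in navitoclax members. Bcl2 stood at 2.72 and 2.91 CPM in vehicle and navitoclax members (1.07-fold [0.674 to 1.73]), and Bcl2l2, which encodes BCL-W, at 14.9 and 18.8 CPM (1.27-fold [1.05 to 1.53]). Bcl2l1, which encodes BCL-XL, stood at 44.1 and 42.3 CPM (0.958-fold [0.855 to 1.07]), and Mcl1, a family member that navitoclax does not target, at 149.9 and 181 CPM (1.21-fold [1.14 to 1.28]). In other AT2 cells the 4 ratios were 1.298, 1.35, 0.985 and 1.07. Bcl2a1b was past the limit, at 36.2 and 23.8 CPM (1.52-fold lower [1.33 to 1.74]), with reads possibly divided among the near-identical Bcl2a1 genes. None of 8 pro-apoptotic family genes passed the limit.

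**Figure D5:**
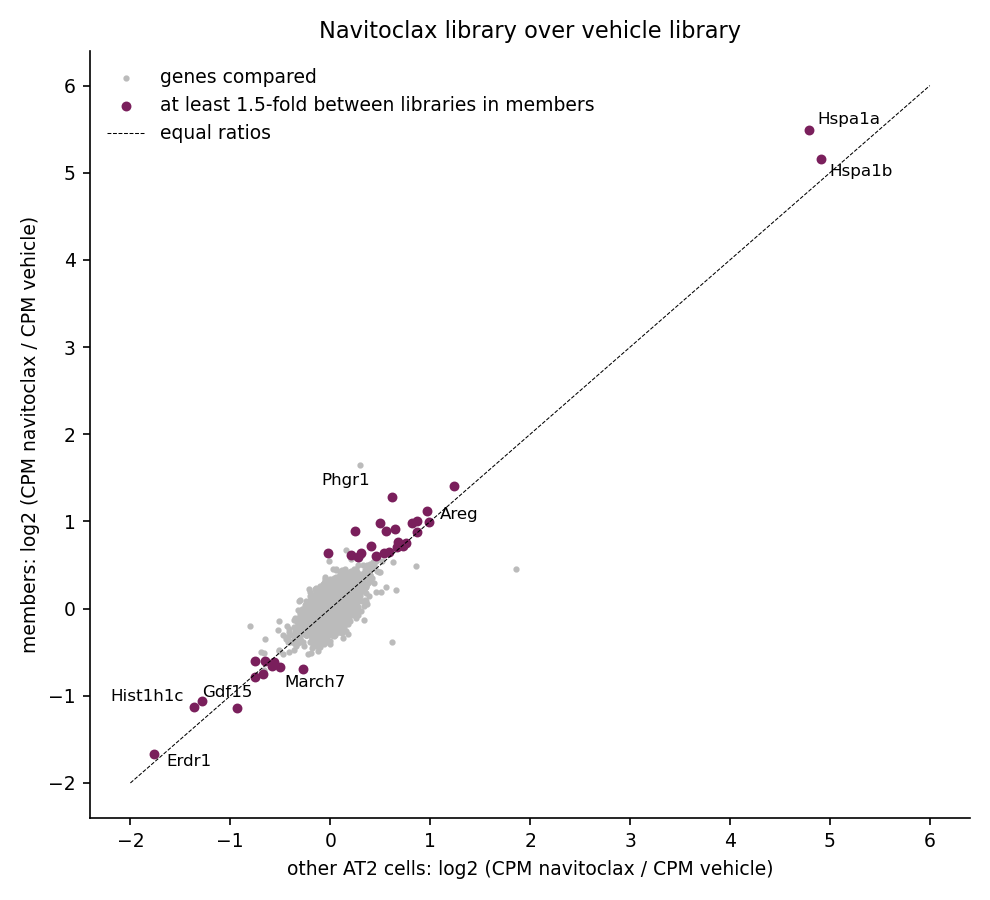
Each point is a gene with at least 100 UMIs in each class, with the log2 ratio of navitoclax to vehicle CPM in other AT2 cells (x axis) and in members (y axis), a dashed line at equal ratios, and purple points for genes at least 1.5-fold apart in members. Hspa1a and Hspa1b lie far to the upper right in both classes, and most purple genes lie near the line.

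The difference between libraries was also compared between members and other AT2 cells. Of 4941 genes, the navitoclax to vehicle ratio was at least 1.5-fold greater in members for 6 (0.121%) and at least 1.5-fold smaller for 2 (0.0405%). The counts depend on the setting: they were 53 and 56 with cells thinned to 5000 UMIs, which include 3 of the 6 and both of the 2, and 19 and 4 at a mitochondrial limit of 5%. In 4 of the 6 (Phgr1, Cyp2f2, Scgb3a2 and Scgb1a1) and in both of the 2 (Ifitm3 and Retnla) 1 cell held over 10% of the UMIs of a group. The counts without such genes were 2 and 0, and the 2 were Hspa1a and the unnamed model 8430408G22Rik. For Hspa1a the ratio of ratios was 1.63 [1.35 to 1.97], and with members chosen by Lrg1 alone or at the 50th percentile it was under the limit, at 0.36 and 0.42 on the log2 scale. It rests on a lower vehicle level in members, 11.1 against 19.5 CPM, while the navitoclax levels were 502 and 538 CPM.

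Below the limit, Ptgs2 (1.396 [1.22 to 1.596]), Apobec3, an antiviral deaminase gene (1.34 [1.18 to 1.52]), Hmgb2, a chromatin protein gene (1.32 [1.198 to 1.46]), Icam1, an adhesion molecule gene (1.22 [1.13 to 1.31]), and Phlda1 (1.203 [1.13 to 1.28]) had the greatest ratios of ratios by the rule. Icam1 stood at 129 and 168 CPM in members and 154 and 165 CPM in the others. The smallest were those of Thbs1, thrombospondin 1 (0.738 [0.656 to 0.8305]), Adamts1, a secreted protease gene (0.757 [0.698 to 0.821]), Nme1 (0.792 [0.713 to 0.881]), Nek6 (0.802 [0.711 to 0.905]), Mt2, a metallothionein gene (0.805 [0.727 to 0.893]) and Itih4 (0.823 [0.7697 to 0.879]). The last 2 changed sign under alternatives: on the log2 scale Mt2 was at 0.106 with the 90th percentile, and Itih4 at 0.0194 with the 50th percentile and 0.04498 at a mitochondrial limit of 5%. Thbs1 stood at 45.3 and 52.7 CPM in members and 66.4 and 105 CPM in the others. Adamts1 stood at 138 and 114 against 85.4 and 92.6 CPM, so it was 1.62-fold higher in members of the vehicle and 1.23-fold higher in those of the navitoclax library.

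Cycling cells were few among the members, and single cells set the values of their genes. No UMI of 5 cycling markers was found in 92.7% of vehicle and 90.3% of navitoclax members, and the markers summed to 0.0489 and 0.315 per 10000. Of the Cdk1 UMIs, 1 cell held 76.9% in vehicle and 40.2% in navitoclax members. The cell cycle list had medians of −0.25 and 0.23 for members over other AT2 cells, so the 2 libraries had opposite signs there, and no direction is read from them.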

How the data were processed

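Single-cell 3′ libraries of 1 vehicle and 1 navitoclax group were analysed. The deposited values are raw UMI counts per gene and cell barcode, made with Cell Ranger 4.0.0 per the file headers, on mm10 per the submitters' processing notes. Each library held 97958947 and 98517048 UMIs, with medians of 9125 and 9921 per barcode. Of 27998 gene identifiers, 27645 were found in GENCODE M21.

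Counts were summed over cells per class and library and scaled to CPM with numpy 2.4.6. Ratio intervals are conditional exact and CPM intervals exact Poisson (scipy 1.17.1). Doublets were called with Scrublet (scanpy 1.11.5, expected rate 6%) and kept. Genes needed at least 100 UMIs and 20 CPM in the higher group, and a 1.5-fold ratio was a rule of size, not a test. Lists used genes with at least 50 UMIs and a pseudocount of 5 CPM. Named genes were the 16 highest and 10 lowest in members, 10 each way between libraries and 6 each way for the ratio of ratios, ranked by the interval bound nearest to 1, up to 4 and 3 per list, the drug targets, and the 10 genes most correlated with the score. Genes of which 1 cell held over 10% were left out, except among those taken from lists and the drug targets. Ptges, Krt18, Sec14l3, Dmkn, Phgr1, Ifitm3 and 8430408G22Rik were named after their values were seen. Members and lists were chosen with earlier results of these data known. The procedure was tested on simulated data. Of 586 listed symbols, 2 had no match.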

Additional observations from a re-analysis of the deposited data

How the results depend on the processing

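No paired analysis was possible because each group had 1 library, and no library could be left out. The share of members was higher in navitoclax under every alternative run, by 6.87 points at the 90th percentile, 15.8 with Lcn2 alone and 4.34 with Lrg1 alone, and by 12.9 to 15.0 points under the others. Where the cause of a shift is not the construction of the alternative, it was not tested. Counts of genes higher and lower in members were 63 and 106 with no minimum CPM and 3 and 9 at 2-fold. Against the middle quartiles they were 13 and 7, and against the lowest quartile 72 and 134, both added after seeing the data. Counts higher and lower in navitoclax members were 150 and 42 with no minimum CPM, 61 and 50 with cells thinned and 7 and 4 at 2-fold. The higher count was 41 at a mitochondrial limit of 5%, and the lower 27 at the 90th percentile.

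Counts of greater and smaller ratios of ratios were 13 and 12 at the 90th percentile, 3 and 5 with Lcn2 alone, 19 and 4 at the mitochondrial limit of 5%, 3 and 4 as means of per-cell CPM, 78 and 43 with no minimum CPM, 53 and 56 with cells thinned, 1 and 1 at 2-fold, and 2 and 0 without genes led by 1 cell, added after seeing the data. The greater count was 2 without the top cell of each group and 1 without airway cells. The smaller count was 7 at the 50th percentile and 4 at a percentile within each library.

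Of 1280 log2 values for 84 results on named genes, 960 moved by less than their interval, 317 by more, and 3 changed sign: Mt2's ratio of ratios was 0.106 at the 90th percentile, and that of Itih4 0.0194 at the 50th percentile and 0.04498 at the mitochondrial limit of 5%. Of 1458 list medians, 11 changed sign, counted only where the main median was not close to 0. Sign changes of medians close to 0 were not counted. Median-of-ratios size factors added 0.0487 in vehicle and 0.0579 in navitoclax to the medians of members over other AT2 cells. Those shifts exceed the size of small medians such as the −0.02 of the IL-6 and STAT3 list. The 11 were as follows. The cell cycle median in navitoclax was −0.0812 at the 90th percentile, −0.0425 at the 50th, −0.0651 with Lcn2 alone, −0.139 thinned and −0.227 against the lowest quartile, and in vehicle 0.0513 thinned and 0.0601 against the middle quartiles. Cholesterol synthesis in vehicle was −0.0245 with Lcn2 alone, chemokines in vehicle −0.151 with Lrg1 alone, IRE1 targets between libraries −0.00110 at the 90th percentile, and airway genes between libraries −0.0991 without airway cells.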
